A study of Mus musculus with 12 samples.

Results

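The small nucleolar RNA (snoRNA) host lncRNA genes are *Gas5*, *Snhg1*, *Snhg5*, *Snhg6*, *Snhg8*, *Snhg12*, *Snhg15* and *Snhg20*, 8 of the 54446 genes counted in the libraries. They were taken by name as spliced noncoding hosts of snoRNAs and matched by GENCODE mouse symbol to the Ensembl identifiers of the counts. All 8 had enough counts to be tested in every comparison, with 119 to 4318 counts per library.

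The libraries came from an RNA immunoprecipitation sequencing (RIP-seq) experiment on YTHDF2, a cytoplasmic protein that binds N6-methyladenosine (m6A) and speeds the decay of the RNA it holds, in CD11b+ myeloid cells sorted from MC38 tumors. MC38 is a mouse colon carcinoma line grown under the skin. All mice were WT (given as *Ythdf2* f/f, 8 to 10 weeks of age), and tumors were either unirradiated (Ctrl) or received 1 local dose of 20 Gy (IR), with cells collected 3 days later. Cells of 5 mice were combined into a pool, with 3 such pools per condition that the study's methods call technical replicates. Each pool gave an Input library, a measure of transcript abundance, and a YTHDF2 IP library, which makes 4 groups of 3 (Ctrl Input, IR Input, Ctrl IP, IR IP). The sources differ on the RNA: the sample records name polyA RNA and an Abcam antibody, the study's methods total RNA from the lysate and an Aviva antibody. There was no IP from cells that lack YTHDF2 and no IP with a control antibody among the 12 libraries used, so IP over Input is reported as recovery with the antibody. P-values measure only the spread between these pools. Pool numbers below are the replicate numbers of the labels. No source says that an Input and an IP of equal number share a pool.

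Host genes of this kind are transcribed by RNA polymerase II, and their introns are trimmed into snoRNAs, which guide ribose methylation (box C/D) or pseudouridylation (box H/ACA) of ribosomal RNA, or into small Cajal body RNAs (scaRNAs), which act on spliceosomal RNAs. The spliced exons that remain reach the cytoplasm, where several of them associate with ribosomes although they encode no conserved protein, and are degraded by nonsense-mediated decay. Many hosts share with ribosomal protein genes a transcript that starts in a run of pyrimidines, the terminal oligopyrimidine feature that ties translation to growth signals.

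*Gas5* (ENSMUSG00000053332.13, chr1:161034422-161038539, plus strand, mm10), named for its rise in growth arrest, held 10 snoRNA entries of the GENCODE annotation, *Snord47*, *Snord78* and *Snord80* among them. *Snhg1* (ENSMUSG00000108414.1, chr19:8723475-8726443, plus) held 8, with *Snord22*, and *Snhg5* (ENSMUSG00000097195.9, chr9:88521050-88522929, minus) held *Snord50a* and *Snord50b*. *Snhg6* (ENSMUSG00000098234.7, chr1:9941959-9944118, minus) held *Snord87*. The remaining hosts carry mainly box H/ACA or scaRNA entries: *Snora24* in *Snhg8* (ENSMUSG00000104960.1, chr3:123507552-123508404, minus), 5 entries in *Snhg12* (ENSMUSG00000086290.9, chr4:132308623-132311024, plus), *Snora9* in *Snhg15* (ENSMUSG00000085156.7, chr11:6525591-6528760, minus) and a scaRNA in *Snhg20* (ENSMUSG00000086859.4, chr11:117076008-117078955, plus).

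The annotation limits what a count on these genes is. The counts were made with GENCODE M19, and the exons described here are those of M21. That annotation lists transcripts with retained introns, so that the merged exons of *Snhg1*, *Snhg8* and *Snhg12* form 1 block over the whole gene, and those of *Gas5* cover 3760 of 4118 bases. Spliced and unspliced host RNA were therefore counted together, and their shares cannot be told apart. Of the 29 snoRNA and scaRNA entries inside the hosts (*Snord80* and *Snora16a* are entered more than once), 28 overlap host exons, and all 28 had 0 counts in every library. Over all snoRNA and scaRNA genes, 0 of 164 that lie wholly in exons of another gene on the same strand had a count, against 9 of 15 that lie only in exons of the opposite strand and 623 of 1312 that lie in no other exon. These zeros follow the position in the annotation and say nothing of snoRNA levels. The exception inside the hosts is *Snord87* in an intron of *Snhg6*, with 5, 1 and 4 counts in the Inputs of Ctrl, 2, 1 and 4 in those of IR, 0, 0 and 2 in the IPs of Ctrl and 0 in each IP of IR, too few to compare against a floor of 3 counts. *Snhg6* also shares 127 exon bases with *Mcmdc2* on the opposite strand.

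The small RNAs encoded in these introns are shown by 3 examples, with sequences from the GENCODE M21 transcripts of mm10. Capitals mark the box C and box D motifs (TGATGA and CTGA) of the box C/D snoRNAs *Snord87* (chr1:9942463-9942549, minus, intron of *Snhg6*) and *Snord47* (chr1:161038082-161038158, plus, in *Gas5*), and the ACA box of *Snora24* (chr3:123507937-123508066, minus, in *Snhg8*).
Snord87: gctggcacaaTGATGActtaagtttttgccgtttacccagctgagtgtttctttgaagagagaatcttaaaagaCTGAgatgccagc
Snord47: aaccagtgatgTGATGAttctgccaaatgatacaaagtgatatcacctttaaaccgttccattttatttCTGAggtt
Snora24: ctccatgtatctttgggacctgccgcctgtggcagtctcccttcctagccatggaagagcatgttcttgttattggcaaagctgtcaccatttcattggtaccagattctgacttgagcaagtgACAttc

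The starts of the host genes are shown because a pyrimidine start is the feature this family is known for. RefSeq promoters (GRCm38.p6) were found for 7 of the 8 genes, all except *Snhg6*. Each line gives 20 bases before the annotated start and 30 from it, and capitals mark the longest run of C and T that touches the window from 5 bases before the start to 10 bases after it. The runs were in chr1:161035146-161035195 (plus, the second start of *Gas5*), chr19:8723467-8723516 (plus, *Snhg1*), chr9:88522868-88522917 (minus, *Snhg5*), chr3:123508307-123508356 (minus, *Snhg8*), chr4:132308658-132308707 (plus, *Snhg12*), chr11:6528731-6528780 (minus, *Snhg15*) and chr11:117076763-117076812 (plus, *Snhg20*).
Gas5: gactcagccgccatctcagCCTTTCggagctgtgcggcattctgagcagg
Snhg1: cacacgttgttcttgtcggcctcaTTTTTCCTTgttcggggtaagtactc
Snhg5: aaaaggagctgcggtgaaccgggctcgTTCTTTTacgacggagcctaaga
Snhg8: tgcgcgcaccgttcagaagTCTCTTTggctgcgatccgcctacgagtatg
Snhg12: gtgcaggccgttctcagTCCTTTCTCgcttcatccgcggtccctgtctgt
Snhg15: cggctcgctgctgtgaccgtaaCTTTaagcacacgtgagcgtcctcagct
Snhg20: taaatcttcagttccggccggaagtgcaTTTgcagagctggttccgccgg

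A run of at least 6 pyrimidines touched this window in 5 of the 7 host genes (*Gas5*, *Snhg1*, *Snhg5*, *Snhg8*, *Snhg12*), and in 27.6% of the 27025 genes with a RefSeq promoter, each gene counted by its start with the longest run. *Gas5* has a second entry, with the start at base 161034601 and a longest run of 3, and by that start the count would be 4 of 7. *Snhg15* had a run of 4 and *Snhg20* a run of 3. The window and the minimum run were set after these sequences had been seen, so the counts are a description.

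Read depth on genes was 34445784 to 42382532 in the Inputs and 27852948 to 33882664 in the IPs. Reads that fell on no gene made up 26.9% to 27.0% of gene, no-gene and ambiguous reads in Ctrl and 24.6% to 24.8% in IR among the Inputs, and 41.8% to 42.7% and 49.4% to 54.1% among the IPs. The 10 myeloid markers (*Itgam*, *Lyz2* and others) were all detected. Their level is given in CPM, counts scaled to a common number of reads on genes with TMM factors over all 12 libraries. The sum was 9380 to 10300 in the Input of Ctrl, against 12700 to 13500 in that of IR. In the IP it was 3200 to 3340 in Ctrl and 3050 to 3410 in IR. Of 5 epithelial or tumor markers, *Krt19* had 0 counts in every group and *Krt8* in the IR Inputs, and the summed level ran from 119 to 127 CPM (Ctrl) and 90.9 to 96.9 (IR) in the Input, and from 71.1 to 78.4 (Ctrl) and 45.2 to 62 (IR) in the IP. The 5 T cell markers summed to at most 2.47 CPM, with *Trac* at 0 in the Input of Ctrl and the IP of IR, and the 3 B cell markers to 8.68 to 23.5 CPM. The 2 NK, 4 fibroblast and 3 endothelial markers summed to at most 5.68, 16.4 and 41 CPM, with *Ncr1* at 0 in the Input of IR and the IP of Ctrl.

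Levels of the host genes are given as CPM scaled over all 12 libraries by the TMM method. Fold changes come from fits scaled within the libraries compared and differ slightly from ratios of these levels. In the Ctrl Inputs the sum over the 8 genes was 273.6 to 284.8 CPM. Per kilobase of merged exon, *Snhg15* (26.7 CPM per kb), *Snhg8* (25.5) and *Gas5* (24.2) had the highest mean levels there, then *Snhg5* (16.9), *Snhg6* (16.7), *Snhg1* (12.3) and *Snhg20* (10.7), and *Snhg12* (5.98) the lowest. Merged exons include retained introns and bases shared with snoRNA entries (9.79% in *Snhg15*, 15.2% in *Snhg8*, 17.8% in *Gas5*). The order of the genes therefore depends in part on the annotation. *Snhg8* differed from *Gas5* and from *Snhg15* by less than its own SD between pools, though by more than theirs. *Snhg5* differed from *Snhg6* by less than the SD of either. After IR, *Snhg15* stood first at 44.6 CPM per kb in the Input.

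**Figure D1:**
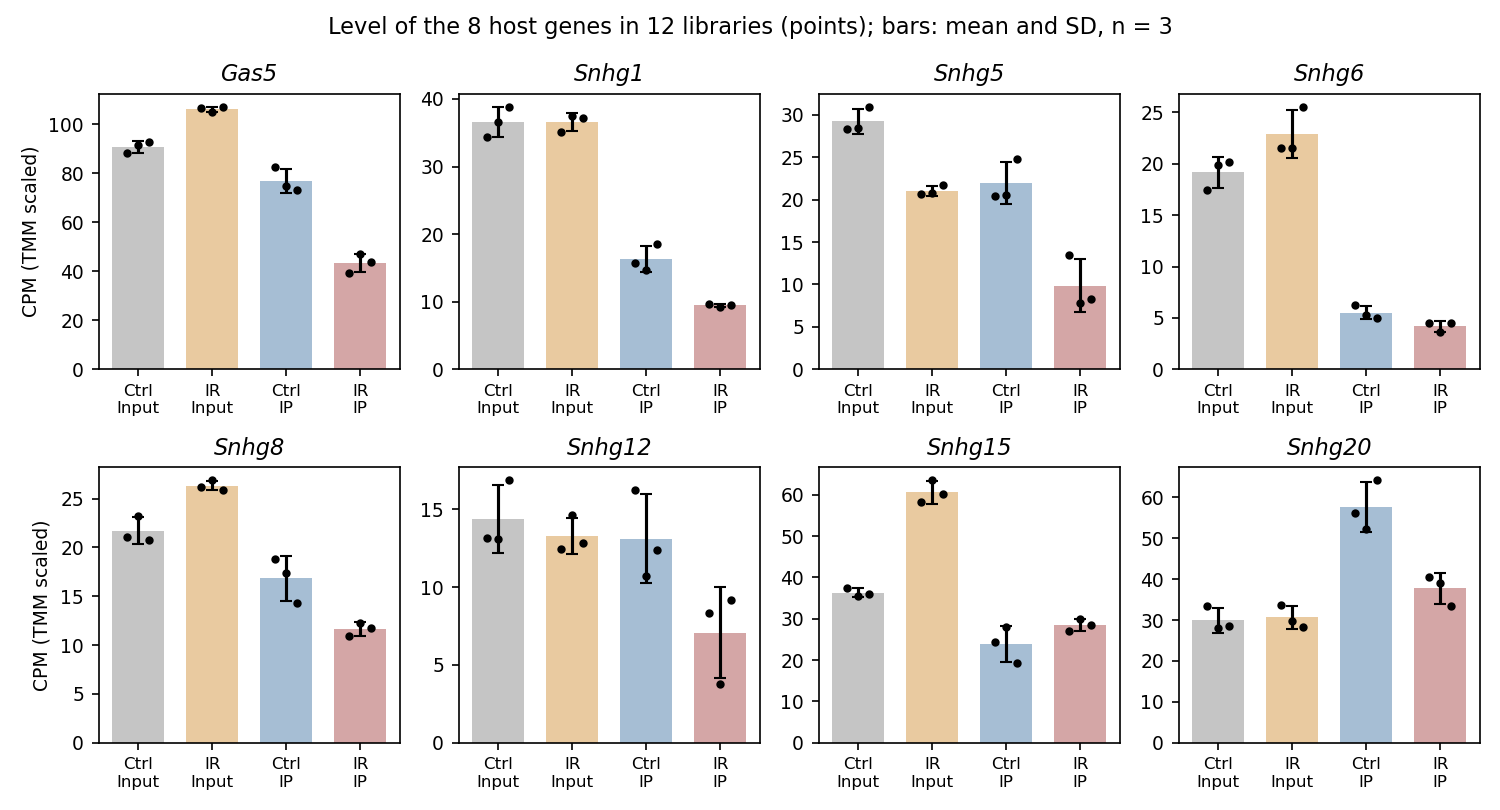
Levels of the 8 host genes in CPM (y axis, linear from 0, TMM scaled) in Ctrl Input, IR Input, Ctrl IP and IR IP; points are single libraries and bars the mean with SD, n = 3 pools. *Snhg20* is the gene with its highest level in the Ctrl IP (mean 57.6 CPM), and in the other 7 the highest mean is in an Input group.

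The first question was which of these transcripts were recovered with the antibody above or below their abundance in unirradiated tumors. *Snhg20* was higher in the IP, and 6 of the 8 genes were lower (*Gas5*, *Snhg1*, *Snhg5*, *Snhg6*, *Snhg8*, *Snhg15*), by the quasi-likelihood test in edgeR, with Benjamini-Hochberg adjusted p over 17416 genes held to a threshold of 0.05. Of all genes tested, 34.1% were called higher and 34.6% lower, and the median log2 change was 0.02, against -0.31 over the 8 host genes.

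*Snhg20* measured 33.5, 28.0 and 28.5 CPM in the Inputs and 56.2, 52.4 and 64.2 CPM in the IPs. Every IP library lay above every Input library, and the level was 2.02-fold higher in the IP (log2 1.02 ± 0.09 SE, n = 3 pools, edgeR adjusted p = 2.06e-08). In contrast, *Snhg6* measured 17.5, 19.9 and 20.2 CPM in the Inputs and 6.24, 5.25 and 5.03 CPM in the IPs. Its groups did not overlap either, and *Snhg6* was the gene among the 8 with the lowest recovery, 3.30-fold below Input (log2 -1.72 ± 0.14 SE, n = 3, edgeR adjusted p = 4.79e-09).

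*Snhg1*, the box C/D host with 8 snoRNA entries, measured 34.4, 36.7 and 38.8 CPM in the Inputs and 15.7, 14.7 and 18.5 CPM in the IPs. The IP level was 2.14-fold lower in groups that did not overlap (log2 -1.09 ± 0.10 SE, edgeR adjusted p = 2.99e-08). *Snhg15* measured 37.5, 35.5 and 36.0 CPM in the Inputs and 24.3, 27.9 and 19.3 CPM in the IPs, again without overlap (log2 -0.53 ± 0.11 SE, edgeR adjusted p = 0.000436). *Snhg5*, with 28.4, 28.5 and 31.0 CPM in the Inputs and 20.5, 20.6 and 24.9 CPM in the IPs, differed less (log2 -0.34 ± 0.10 SE, edgeR adjusted p = 0.00556).

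*Gas5* was the most abundant of the 8 genes in reads, at 88.2, 91.5 and 92.7 CPM in the Inputs and 82.4, 74.8 and 73.1 CPM in the IPs. Its difference was small (log2 -0.17 ± 0.06 SE, edgeR adjusted p = 0.0189) and was no longer called without the IP of pool 2 (log2 -0.11, adjusted p = 0.138) or of pool 3 (log2 -0.10, adjusted p = 0.161). It also depended on the scaling: the log2 change was -0.07 with TMM on protein-coding genes of the nuclear genome (adjusted p = 0.315, not called), -0.35 with library size only and -0.28 without a filter on low counts. *Snhg8*, the host of *Snora24*, was at 21.1, 23.3 and 20.8 CPM in the Inputs and 18.8, 17.4 and 14.3 CPM in the IPs (log2 -0.29 ± 0.12 SE, edgeR adjusted p = 0.0353). That call was lost without the Input of pool 1 (adjusted p = 0.0576) or 2 (0.115), without the IP of pool 2 (0.0666) or 3 (log2 -0.15, 0.216), and with DESeq2 in place of edgeR (0.0585). It was lost as well with TMM on nuclear protein-coding genes (log2 -0.19, adjusted p = 0.154), with DESeq2 size factors (0.0519) and with at least 10 counts required in every library (0.0513), and the log2 change was -0.47 with library size only. *Snhg12* did not pass the test: its Inputs, at 13.1, 13.1 and 16.9 CPM, overlapped its IPs, at 16.3, 10.7 and 12.4 CPM, and the 95% interval of the difference ran from -0.39 to 0.27 on the log2 scale.

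In irradiated tumors, 7 of the 8 genes were lower in the IP than in the Input and *Snhg20* was higher, while 30.4% of the 18650 genes tested were called lower and 32.1% higher. The median log2 change was -1.08 over the host genes and 0.10 over all genes tested. *Snhg6* again had the lowest recovery, with 21.5, 21.6 and 25.6 CPM in the Inputs and 4.51, 3.59 and 4.51 CPM in the IPs. This was a 5.24-fold difference (log2 -2.39 ± 0.17 SE, edgeR adjusted p = 3.89e-07). *Snhg1*, at 35.1, 37.5 and 37.2 CPM in the Inputs and 9.69, 9.21 and 9.50 CPM in the IPs, was 3.72-fold lower (log2 -1.90 ± 0.11 SE, edgeR adjusted p = 9.69e-08).

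*Gas5* measured 106.5, 105.0 and 107.0 CPM in the Inputs and 39.4, 46.9 and 43.7 CPM in the IPs, well apart, a 2.36-fold difference (log2 -1.24 ± 0.08 SE, edgeR adjusted p = 1.29e-07). *Snhg8*, at 26.2, 26.9 and 25.9 CPM in the Inputs and 10.9, 12.3 and 11.8 CPM in the IPs, was 2.18-fold lower (edgeR adjusted p = 1.35e-05). *Snhg15* was 2.05-fold lower, at 58.1, 63.6 and 60.2 CPM in the Inputs and 27.1, 29.9 and 28.6 CPM in the IPs (edgeR adjusted p = 1.44e-06). None of these 3 genes overlapped between IP and Input. How many of all genes tested lacked such overlap, here or in Ctrl, was not counted.

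*Snhg5* measured 20.7, 20.8 and 21.7 CPM in the Inputs and 13.4, 7.79 and 8.26 CPM in the IPs. Pool 1 stood above the other pools in the IP, and the groups did not overlap (log2 -1.05 ± 0.20 SE, edgeR adjusted p = 0.00105). *Snhg12* had 12.4, 14.6 and 12.9 CPM in the Inputs and 8.30, 3.74 and 9.20 CPM in the IPs, with pool 2 the lowest (log2 -0.86 ± 0.29 SE, edgeR adjusted p = 0.0225). Without the Input of pool 2 the call of *Snhg12* was lost (log2 -0.80, adjusted p = 0.0728). Without the IP of pool 2 its log2 change was -0.47. *Snhg20* was at 33.8, 29.8 and 28.4 CPM in the Inputs and 40.6, 39.0 and 33.5 CPM in the IPs, which overlapped by the lowest IP and the highest Input (log2 0.35 ± 0.11 SE, edgeR adjusted p = 0.0178). That call was lost without the Input of pool 2 (log2 0.32, adjusted p = 0.0818) or of pool 3 (log2 0.29, adjusted p = 0.0988), and without a filter on low counts (log2 0.22, adjusted p = 0.127).

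**Figure D2:**
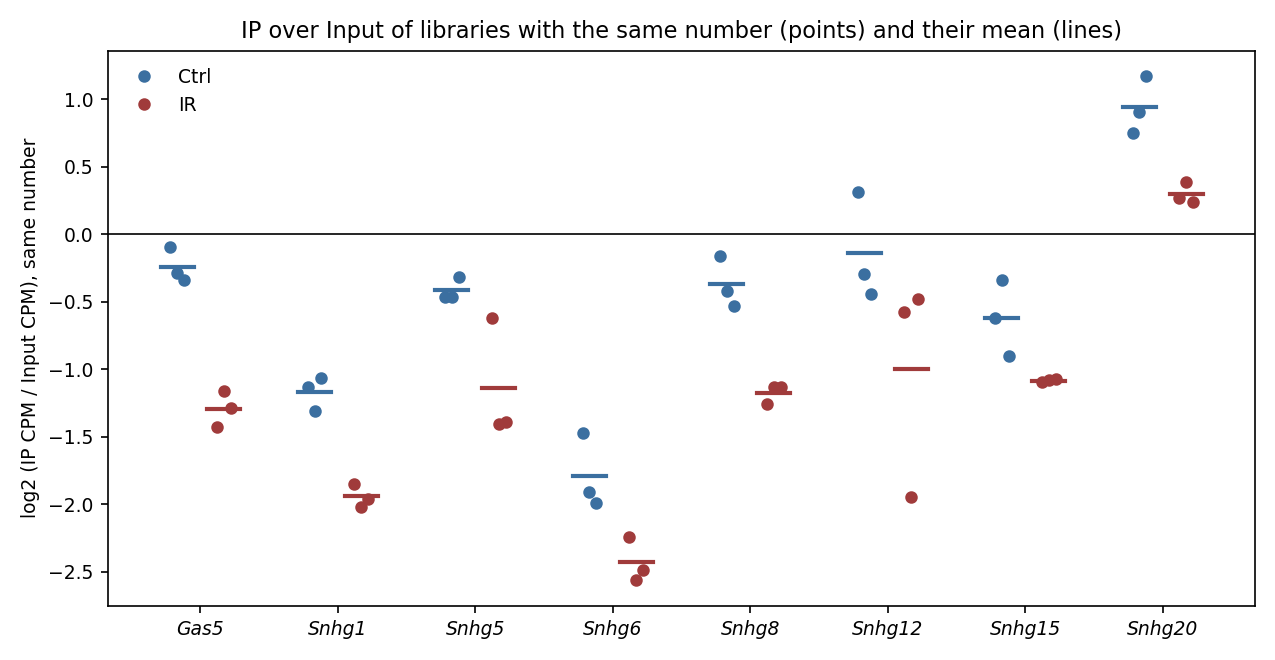
Log2 ratio of IP CPM to Input CPM (y axis) of libraries with the same number for each host gene in Ctrl and IR; points are the 3 ratios, short lines their mean, and 0 marks equal levels. The IR ratios of *Gas5* lie at -1.43 to -1.16, below its Ctrl ratios at -0.34 to -0.10, and *Snhg20* alone has every ratio above 0.

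Whether recovery changed with IR was tested directly, as the interaction of fraction and condition over the 12 libraries. The log2 ratio of IP to Input was lower in IR than in Ctrl for 7 of the 8 genes, by the same edgeR test and adjustment. It was higher for 0 genes with edgeR or DESeq2 and at an unadjusted p under 0.05, since all 8 estimates were below 0. Over the 20720 genes tested, 13.9% were called lower and 6.28% higher. The median change was -0.73 over the host genes and -0.08 over all genes.

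The ratios below divide each IP by the Input of the same number, although the labels do not say that equal numbers share a pool, and the test does not use that match. *Gas5* changed most: its log2 ratio was -0.10, -0.29 and -0.34 in Ctrl and -1.43, -1.16 and -1.29 in IR. The change was -1.05 ± 0.10 (SE, n = 3 pools per condition, edgeR adjusted p = 1.72e-07). For *Snhg8* the ratio was -0.16, -0.42 and -0.53 in Ctrl and -1.26, -1.13 and -1.14 in IR, a change of -0.81 ± 0.17 (edgeR adjusted p = 0.00171). *Snhg1* went from -1.13, -1.31 and -1.07 in Ctrl to -1.85, -2.02 and -1.96 in IR, a change of -0.78 ± 0.15 (edgeR adjusted p = 0.000887).

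*Snhg20*, the host above Input in both conditions, had ratios of 0.75, 0.90 and 1.17 in Ctrl and 0.27, 0.39 and 0.24 in IR. It thus moved the same way as the genes below Input, by -0.64 ± 0.15 (edgeR adjusted p = 0.00404). The calls of *Gas5*, *Snhg1*, *Snhg8* and *Snhg20* were kept in each of the 12 fits that left out 1 library.

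The other 3 calls were less firm. *Snhg5* changed by -0.68 ± 0.22 (edgeR adjusted p = 0.0366), with ratios of -0.47, -0.47 and -0.32 in Ctrl and -0.62, -1.41 and -1.39 in IR. It was called in 1 of the 12 fits that left out a library, the one without the IR IP of pool 1 (change -0.96, adjusted p = 0.000171), and the other 11 gave changes of -0.51 or further below 0 and adjusted p up to 0.15. *Snhg6* changed by -0.65 ± 0.22 (edgeR adjusted p = 0.0397), and its call was lost in 10 of 12 such fits, all except those without the IR IP of pool 1 or 3 (changes of -0.49 or further below 0, adjusted p up to 0.146).

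*Snhg15* changed by -0.48 ± 0.15 (edgeR adjusted p = 0.0286), the smallest of the 8 values. Its call was lost in 7 of 12 fits: without the Ctrl Input or the IR Input of pool 2 or 3, the Ctrl IP of pool 1 or 2, or the IR IP of pool 3. The most distant value, -0.29 (adjusted p = 0.19), came without the Ctrl IP of pool 2. *Snhg12* was not called (change -0.78 ± 0.34, edgeR adjusted p = 0.12), with an interval from -1.49 to -0.07, and it was called without the IR IP of pool 3 (change -0.94, adjusted p = 0.0491) and without a filter on low counts (change -0.80, adjusted p = 0.0102). Without the IR IP of pool 2 its change was -0.45 (adjusted p = 0.207).

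The size of these changes depends on how libraries are scaled. *Snhg5*, *Snhg6* and *Snhg15* were not called with DESeq2 size factors, with TMM on nuclear protein-coding genes or with at least 10 counts required in every library. With library size only, the median of all genes moved from -0.08 to 0.23 on the log2 scale, and the share of calls that were lower fell from 68.9% to 23.5%. All 8 host genes stayed below 0 under that scaling, from -0.74 for *Gas5* to -0.17 for *Snhg15*, but only *Gas5* and *Snhg1* were called. Relative to the median of all genes, they lay at -0.97 to -0.40 on the log2 scale. A change of scaling shifts each gene and the median alike, so this holds under any scaling by construction and says nothing of how firm the calls are. The share of reads on no gene was highest in the IR IPs, as given above, and its part in the result was not tested.

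**Figure D3:**
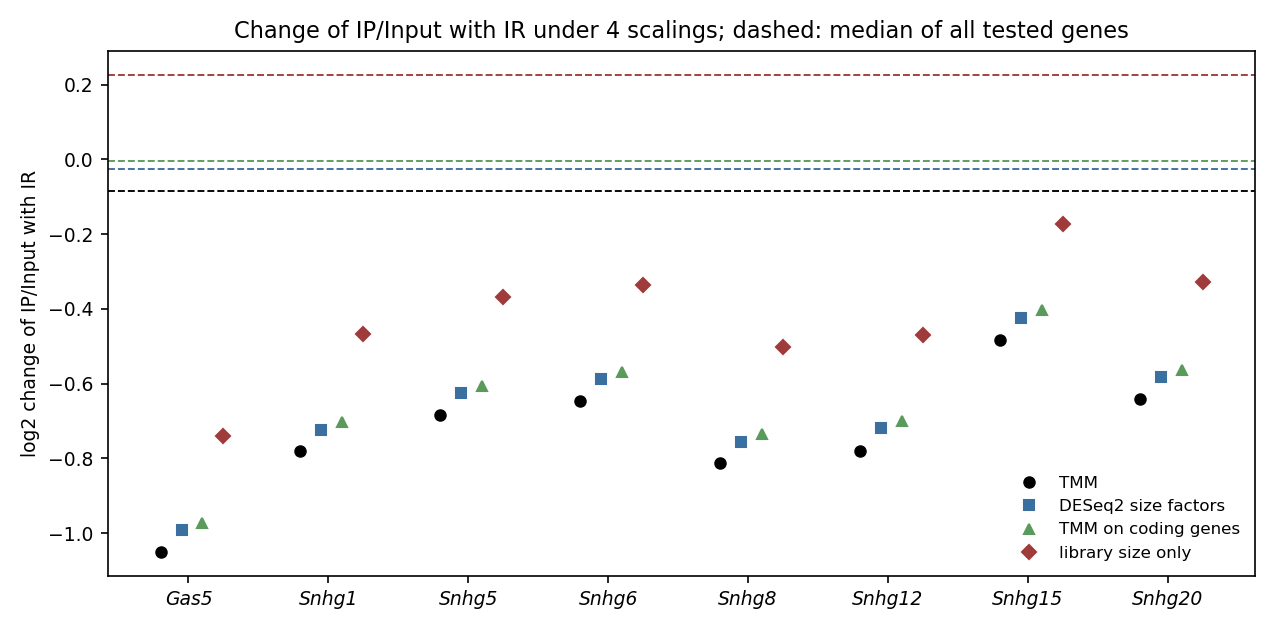
Change of the log2 ratio of IP to Input with IR (y axis) for each host gene under 4 scalings of the libraries, with dashed lines for the median of all tested genes under the scaling of the same color. Points and lines shift together by construction, and every point lies below the line of its scaling.

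The same libraries were then compared within each fraction. In the Input, where the level measures transcript abundance, *Snhg15*, *Gas5* and *Snhg8* were higher after IR and *Snhg5* was lower, 3 and 1 of the 8 genes, and the other 4 were not called. Of the 16914 genes tested, 21% were called higher and 23.9% lower. *Snhg15* rose 1.58-fold, from 37.5, 35.5 and 36.0 to 58.1, 63.6 and 60.2 CPM (log2 0.66 ± 0.05 SE, edgeR adjusted p = 6.46e-11). *Snhg5* fell 1.47-fold, from 28.4, 28.5 and 31.0 to 20.7, 20.8 and 21.7 CPM (log2 -0.55 ± 0.07 SE, edgeR adjusted p = 2.26e-07). For both genes the groups were far apart relative to the spread of the pools.

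*Gas5* rose by 0.15 ± 0.04 on the log2 scale (edgeR adjusted p = 0.00294). *Snhg8* rose by 0.20 ± 0.07 (edgeR adjusted p = 0.0248), a call lost without the Ctrl Input of pool 1 (adjusted p = 0.0686) or 3 (0.115), without the IR Input of pool 2 (0.0675), and with all 12 libraries in 1 fit (0.118). The interval of the log2 change was -0.20 to 0.04 for *Snhg1*, 0.01 to 0.35 for *Snhg6* (edgeR adjusted p = 0.0878), -0.41 to 0.02 for *Snhg12* and -0.20 to 0.11 for *Snhg20*. In these bulk samples, a change in the share of cells that express a gene and a change in its RNA per cell cannot be told apart. The summed marker levels also differed between Ctrl and IR Inputs, without overlap for every list except the T cell markers. B cell markers summed to 11.9 to 13.3 CPM in Ctrl and 19.9 to 23.5 in IR. Fibroblast markers were at 6.03 to 6.83 and 7.82 to 12.5 CPM, and endothelial markers at 25.3 to 26.8 and 21.7 to 23.7. NK markers were low in both, at 0.0572 to 0.221 and 0.276 to 0.514 CPM. The part of these differences in the results was not tested.

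*Snhg15* and *Snhg5* had the highest and the lowest change with IR in both fractions, and their ratio within each library, which needs no scaling, is given as a description with no test, since the pair was picked for that difference. *Snhg15* over *Snhg5* had a geometric mean of 1.24 in Ctrl and 2.88 in IR among the Inputs. Among the IPs the ratio was 1.08 in Ctrl and 2.99 in IR, so it shifted by 1.21 and 1.48 on the log2 scale.

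In the IP, 4 of the 8 genes were lower after IR (*Gas5*, *Snhg1*, *Snhg5*, *Snhg20*) and 0 were higher, while 9.85% of the 19255 genes tested were called lower and 6.12% higher. DESeq2 and an unadjusted p under 0.05 in edgeR also gave 0 higher. *Snhg5* fell 2.22-fold (log2 -1.15 ± 0.21 SE, edgeR adjusted p = 0.00117) and *Gas5* 1.76-fold (log2 -0.82 ± 0.10 SE, edgeR adjusted p = 2.44e-05). The fall of *Snhg1* was 1.71-fold (log2 -0.77 ± 0.18 SE, edgeR adjusted p = 0.00761) and was not called without the Ctrl IP of pool 3 (log2 -0.67, adjusted p = 0.0642). *Snhg20* fell 1.51-fold (log2 -0.60 ± 0.11 SE, edgeR adjusted p = 0.00161) although its Input level did not pass the test.

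*Snhg12* (log2 -0.88 ± 0.29 SE, edgeR adjusted p = 0.0506) and *Snhg8* (log2 -0.52 ± 0.18 SE, edgeR adjusted p = 0.0575) narrowly missed the threshold in the IP, and DESeq2 called both (adjusted p = 0.0337 and 0.0474). Both were called too without a filter on low counts (0.00183 and 0.0329) and with all 12 libraries in 1 fit (0.0112 and 0.00344). *Snhg12* was also called with at least 10 counts required in every library (adjusted p = 0.0378), and without the IR IP of pool 1 (adjusted p = 0.0396) or pool 3 (log2 -1.10, adjusted p = 0.0248). *Snhg6* had an interval from -1.0 to 0.24. *Snhg15*, the gene that rose most in the Input, had a log2 change of 0.27 ± 0.15 in the IP (edgeR adjusted p = 0.263), and with library size only it was called higher (log2 0.47, adjusted p = 0.0417). These comparisons and the ratios of IP to Input share libraries, so they are not separate evidence.

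**Figure D4:**
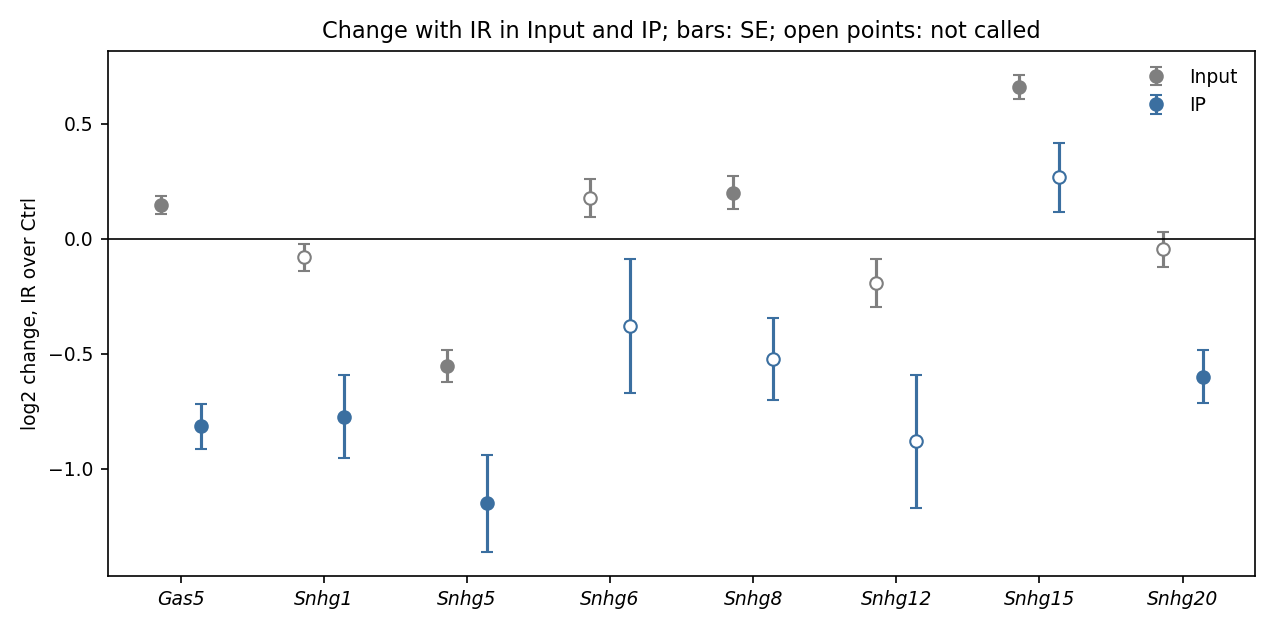
Log2 change with IR (y axis) of each host gene in Input and in IP; bars are SE from edgeR, n = 3 pools per group, filled points were called and open points not. *Snhg15* is highest in both fractions (0.66 and 0.27) and *Snhg5* lowest in both (-0.55 and -1.15).

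Related genes were taken from lists of other snoRNA hosts, snoRNP proteins and decay factors, and described by counts. Of all genes tested, 34.1% were higher and 34.6% lower in the IP of Ctrl. The ratio of IP to Input was lower after IR in 13.9% and higher in 6.28%, and the Input level was higher in 21% and lower in 23.9%. Among 13 other noncoding hosts, 5 of the 10 tested in Ctrl were lower in the IP and 1 was higher (median log2 -0.65), and 2 of 12 had a lower ratio of IP to Input after IR (median -0.20). Those were *2410006H16Rik* (change -0.64, edgeR adjusted p = 0.000841) and *Zfas1* (-0.46, adjusted p = 0.0219), whereas *Epb41l4aos* (-0.17, adjusted p = 0.79) and *Snhg17* (-0.23, adjusted p = 0.413) were not called. Of the 67 protein-coding hosts tested in Ctrl, 47 were lower and 16 higher, and the latter include *Ccar1* (log2 2.19) and *Chd8* (log2 1.97), a chromatin remodeler. With the ribosomal protein genes left out, 24 of the 43 coding hosts tested were lower and 16 higher.

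The cytosolic ribosomal protein genes (83 by symbol) are a group known for the pyrimidine start, and 35 of the 63 with a RefSeq promoter (55.6%) had a run of at least 6. They were lower in the IP in 78 of 81 tested in Ctrl (median -1.20) and 79 of 81 in IR (median -1.59). Their ratio of IP to Input fell with IR in 64 of 81 (median -0.39, against -0.73 over the 8 host genes), while their Input level rose in 78 of 81 (median 0.44, against 0.05). *Rpl39* (log2 -3.24 in Ctrl) and *Rpl10* (-2.52), both snoRNA hosts, had the lowest IP over Input among the named coding hosts. The nuclear lncRNAs *Malat1*, *Neat1* and *Kcnq1ot1* were higher in the IP in both conditions, 3 of 3 (median 1.29 in Ctrl). Over all lncRNA genes, 694 of 1646 were higher and 116 lower in Ctrl, and 788 of 1895 higher and 95 lower in IR.

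Of 19 snoRNP proteins and assembly factors, 12 were lower and 1 was higher in the Input after IR, and 10 of 19 had a lower ratio of IP to Input. The box C/D core proteins *Nop58* and *Nop56* were above Input in Ctrl (log2 1.45 and 1.22) and less so in IR (0.60 and 0.32), and the H/ACA protein *Nop10* was below it in both (-1.67 and -2.75). *Snu13*, which binds the box C/D motif, was at -1.72 and -1.70. Of 20 decay factors, 12 were lower and 6 higher in the IP of Ctrl, and 8 had a lower ratio after IR against 2 with a higher one. The highest named in Ctrl were *Upf2* (log2 3.31) and *Upf3b* (2.13), which join nonsense-mediated decay to the exon junction. The lowest named were *Magoh* (-2.45) and *Gspt1* (-1.26).

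The m6A consensus GGACT was searched on the sense strand of the longest annotated transcript without a retained intron. *Snhg20* held 6 matches in 2153 nt (2.79 per kb) and *Snhg15* 2 in 675 nt (2.96 per kb), *Gas5* 1 in 665 nt (1.5 per kb) and *Snhg6* 1 in 816 nt (1.23 per kb). *Snhg1*, *Snhg5*, *Snhg8* and *Snhg12* held none. The median was 0.965 per kb over 2047 lncRNA genes and 1.06 over 13961 protein-coding genes, and 76% and 92.6% of them held at least 1 match. That share depends on length. The median length was 1580 and 3150 nt in those genes, and the host transcripts ran from 528 (*Snhg8*) to 2153 nt (*Snhg20*). The count depends on the isoform. Annotated transcripts without a retained intron gave 0 to 3.67 per kb for *Snhg20*, 0 to 2.96 for *Snhg15* and 0 to 1.07 for *Snhg12*. They gave 1.5 to 2.89 per kb for *Gas5* and 1.23 to 2.5 for *Snhg6*. For *Snhg1*, *Snhg5* and *Snhg8* the value was 0 in each of them.

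Across the 12 libraries, the genes whose log2 CPM was most like the mean of the 8 host genes were *Pnp*, *Ptgs1*, *Ccnd3*, *Fmc1*, *Isyna1* and *Arhgap4*, with Pearson r of 0.985 to 0.987 among 11720 candidates. The libraries form 4 groups, so this likeness rests mainly on group levels and is a description. *Fmc1* averaged 0.831 CPM in the Ctrl IP and 0.083 in the IR IP, the latter below the level of 3 counts. Its log2 ratio of IP to Input changed by -3.12 with IR. Among the host genes themselves, the r with that mean was 0.795 to 0.977 for *Gas5*, *Snhg1*, *Snhg5*, *Snhg6*, *Snhg8* and *Snhg12*, 0.669 for *Snhg15* and -0.442 for *Snhg20*. Each host gene is part of that mean, so these r cannot be set beside those of the other genes.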

How the data were processed

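Input and YTHDF2 IP RNA from CD11b+ myeloid cells of MC38 tumors was sequenced in 12 libraries, grouped by the labels. The authors used Trimmomatic 0.39 for trimming and HISAT for alignment to mm10 (GENCODE M19 annotation), and deposited raw HTSeq counts per gene, without normalization. The deposited counts were used as they were, with the summary lines that name no gene left out. The strand option of HTSeq is not given in the sources used here. Duplicate reads of 1 molecule are not marked, so count floors cover counting error only.

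Symbols, coordinates and exons came from GENCODE M21, not the M19 behind the counts (97.8% of identifiers matched with version, 99.9% with or without). A gene entered a comparison when 3 or more of its libraries had 10 or more counts. Libraries were scaled with TMM, and edgeR 4.0.16 (R 4.3.3) gave quasi-likelihood p-values, Benjamini-Hochberg adjusted at 0.05. SE is the absolute log2 change divided by the square root of F, and 95% intervals use its t quantile. DESeq2 1.42.0, other scalings, filters, fits and libraries left out were alternatives. The steps were tested on simulated counts, where no called change had the wrong direction but part of the known changes was missed, most for the interaction. The recovery asked for was lowered and then dropped after that outcome was seen, so a gene that was not called may still differ.

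The members, lists and tests were chosen with earlier results of these data known. All 8 genes were named. From related lists, the highest and lowest genes by IP over Input in Ctrl with a mean of at least 100 counts were named, and for likeness the 6 genes with the highest Pearson r. The pyrimidine window, the transcripts used for motif counts and the printed snoRNAs were chosen after seeing the sequences. Ribosomal protein genes were taken by symbol, which includes a few paralogs. *Snhg4* and *Snhg7* did not match a counted symbol.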

Additional observations from a re-analysis of the deposited data

Results flagged for a closer look

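The ratio of IP to Input differed between Ctrl and IR, by the interaction test of edgeR, for 7 of the 8 host genes, all lower in IR, while 13.9% of the 20720 genes tested were lower and 6.28% higher. On the log2 scale the change was -1.05 for *Gas5*, -0.813 for *Snhg8*, -0.781 for *Snhg1*, -0.684 for *Snhg5*, -0.647 for *Snhg6*, -0.642 for *Snhg20* and -0.482 for *Snhg15*. With 1 library left out, the call was lost in 11 of 12 fits for *Snhg5*, 10 for *Snhg6* and 7 for *Snhg15*, and in none for the other 4. The share of reads on no gene was 49.4% to 54.1% in the IR IPs against 41.8% to 42.7% in the Ctrl IPs, and its part in these changes was not tested.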

How the results depend on the processing

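The number of host genes called lower for the change of IP/Input with IR, 7 with TMM and edgeR, was 4 with DESeq2 size factors, 4 with TMM on protein-coding genes of the nuclear genome, 4 with at least 10 counts in every library, 2 with library size only and 4 to 7 with 1 library left out. DESeq2 in place of edgeR gave 7, and no filter on low counts gave 8, with *Snhg12* added (-0.804, adjusted p = 0.0102). Of the 20720 genes tested, 2881 were lower with TMM and edgeR and 2374 with DESeq2 size factors. TMM on nuclear protein-coding genes gave 2227 and library size only 877. With at least 10 counts in every library, 2170 of 13527 were lower. The 6 genes lower in the IP of Ctrl became 4 with TMM on nuclear protein-coding genes, 5 with DESeq2 size factors, with DESeq2 or with at least 10 counts in every library, and 4 to 6 with 1 library left out. Among all 17416 genes tested there, 6019 were lower, and 5552 with TMM on nuclear protein-coding genes. DESeq2 size factors gave 5906 and DESeq2 5869. Requiring a 2-fold change left 1 host gene lower for the change of IP/Input with IR, against 270 of the 20720 genes tested. In the IP of Ctrl it left 2 lower (all genes: 3232 of 17416), and in the IP of IR 0 higher (4102 of 18650). With IR it left 0 higher and 0 lower in the Input (344 and 674 of 16914), and 1 lower in the IP (135 of 19255). The 1 gene higher in the IP of IR, *Snhg20*, became 0 without a filter on low counts, and 0 to 1 with 1 library left out. With library size only, 1 host gene was higher with IR in the IP, against 2665 of the 19255 genes tested. Directions changed for values that had not passed the test: *Snhg12* in the IP of Ctrl (-0.06) was 0.041 with TMM on coding genes and -0.206 to 0.111 with 1 library left out, and *Snhg20* in the Input (-0.05) was 0.032 with all libraries in 1 fit and -0.120 to 0.041 with 1 library left out. The cause was not tested. The study's methods split each lysate into Input and IP, but no source says that equal numbers share a lysate. Deviations from group means of same-numbered libraries correlated at -0.019 to 0.015 over 20720 genes, and 4 of 12 libraries correlated best with their own number. With the replicate block 6 genes were lower for the change of IP/Input, without *Snhg6* (-0.645, adjusted p = 0.0704), and 5 were lower with IR in the IP, with *Snhg12* added (-0.95); it changed no other call. In all, 538 of 640 values of single genes kept direction and call.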
